A study of Homo sapiens with 4 samples.

Results

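The 45 genes described here encode the RNA sensors, transcription factors and effector proteins of the interferon response. Members are the probe sets whose platform annotation gives exactly 1 gene symbol, that symbol being one of the 45, with DDX58 read as RIGI. The rule found 120 of the 49395 probe sets, for 43 of the 45 genes. STAT2 and USP18 had no probe set with that symbol alone and were not analysed here. RNA came from SCC-9 cells, a line derived from a human squamous carcinoma of the tongue. A synthetic miR-585-5p (the mimic group) or a control oligonucleotide, miR-NC, was introduced at 30 nM, and RNA was taken 36 hours later. Each group was measured on 2 Affymetrix PrimeView arrays. Both groups received a small RNA and no array of untransfected cells was used, so a response common to both transfections would not appear in this comparison. The labels do not say whether the 2 arrays of a group came from separate cultures, so a p-value here reflects the spread among these samples alone, which may be technical.

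Cells detect foreign RNA through the cytosolic helicases RIG-I (RIGI) and MDA5 (IFIH1), which signal through the mitochondrial adaptor MAVS, and through the endosomal receptor TLR3. These routes activate IRF3 and IRF7, which switch on interferon genes. Secreted interferon binds its receptors and activates STAT proteins, which with IRF9 bind an interferon-stimulated response element (ISRE) in the promoters of interferon-stimulated genes. Epithelial cells, including those of the oral lining, carry this system as part of their own antiviral defence.

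The microRNA that the mimic is named for is shown because its addition is the designed difference between the groups. The sequence is the mature hsa-miR-585-5p of RefSeq (GRCh38.p14, chr5:169263649-169263670, minus strand), with the seed, bases 2 to 8, in capitals.
hsa-miR-585-5p: cUAGCACAcagauacgcccaga
Sequences of the transcripts were not used here, so matches of this seed in the members' transcripts are not given.

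The upstream 160 bases of 9 chosen members are printed as examples of promoters with and without ISRE letters. They come from RefSeq's GRCh38.p14 gene starts, and capitals mark the ISRE letters GAAANNGAAA on either strand. The first 3 belong to genes that rose in the mimic group and hold these letters (IFIT1, ISG15, ISG20). The next 3 belong to genes that fell and hold the same letters (IFI6, SAMD9, IFITM3). The last 3 belong to the members with the largest falls, which hold none in this window (IFI35, MAVS, ZC3HAV1). Other genes rose and also held none in the longer window described below: RIGI, which had the largest rise, OAS1, IRF1 and HERC6. None of these is printed, so the 9 do not represent the risen and fallen groups. Their positions are IFIT1 chr10:89392463-89392622 (plus), ISG15 chr1:1013337-1013496 (plus), ISG20 chr15:88638856-88639015 (plus), IFI6 chr1:27672193-27672352 (minus), SAMD9 chr7:93117980-93118139 (minus), IFITM3 chr11:320861-321020 (minus), IFI35 chr17:43006624-43006783 (plus), MAVS chr20:3846674-3846833 (plus) and ZC3HAV1 chr7:139109721-139109880 (minus).
IFIT1: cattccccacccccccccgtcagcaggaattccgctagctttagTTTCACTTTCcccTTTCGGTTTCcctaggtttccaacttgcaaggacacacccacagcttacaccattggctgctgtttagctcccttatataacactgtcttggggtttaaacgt
ISG15: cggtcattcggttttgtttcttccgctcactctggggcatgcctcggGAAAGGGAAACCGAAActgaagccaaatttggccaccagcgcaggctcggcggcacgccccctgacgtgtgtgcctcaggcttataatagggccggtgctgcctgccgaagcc
ISG20: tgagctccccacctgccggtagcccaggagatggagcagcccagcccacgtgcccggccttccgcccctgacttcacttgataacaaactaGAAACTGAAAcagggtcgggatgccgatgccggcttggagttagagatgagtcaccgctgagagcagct
IFI6: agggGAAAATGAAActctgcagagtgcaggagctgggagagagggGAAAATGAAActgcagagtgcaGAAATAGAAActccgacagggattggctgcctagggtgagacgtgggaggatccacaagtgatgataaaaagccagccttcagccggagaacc
SAMD9: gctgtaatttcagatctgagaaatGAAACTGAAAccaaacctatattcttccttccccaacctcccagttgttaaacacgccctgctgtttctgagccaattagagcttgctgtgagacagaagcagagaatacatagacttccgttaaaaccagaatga
IFITM3: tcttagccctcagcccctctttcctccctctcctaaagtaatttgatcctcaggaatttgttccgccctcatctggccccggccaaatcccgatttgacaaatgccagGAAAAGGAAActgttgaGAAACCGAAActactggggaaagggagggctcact
IFI35: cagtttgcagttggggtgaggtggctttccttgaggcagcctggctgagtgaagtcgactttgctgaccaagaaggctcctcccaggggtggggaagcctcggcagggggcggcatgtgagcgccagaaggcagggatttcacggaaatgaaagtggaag
MAVS: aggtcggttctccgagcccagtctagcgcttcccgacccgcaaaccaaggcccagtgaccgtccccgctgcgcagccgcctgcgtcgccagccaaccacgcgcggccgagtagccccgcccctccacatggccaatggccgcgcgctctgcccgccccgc
ZC3HAV1: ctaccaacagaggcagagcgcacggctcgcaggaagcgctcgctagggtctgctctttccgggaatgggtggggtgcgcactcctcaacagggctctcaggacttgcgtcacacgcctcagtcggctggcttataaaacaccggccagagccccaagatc

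ISRE letters were common among these promoters and stood in risen and fallen members alike. RefSeq gave a window from 250 bases before to 50 bases after the gene start for 36 of the 45 genes, and 23 of the 36 (63.9%) held GAAANNGAAA on either strand, where 4.38% of all 27305 genes with a window did. By outcome in the comparison below, the letters stood in 4 of 8 genes that rose, 6 of 11 that fell, 7 of 9 that did not pass the test and 6 of 7 that lay under the intensity filter, and not in STAT2, which was not measured. A shorter palindromic motif, the gamma-activated site TTCNNNGAA, stood in 11 of the 36 genes (30.6%), against 9.38% of all genes, among them IRF1, OAS1 and MX1 of the risen and IFI35, ZC3HAV1, IRF9 and IFITM1 of the fallen members. The 2 motifs overlapped each other in IFITM1, BST2, MX1 and IFI27. These are matches of letters and not measured binding sites.

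**Figure D1:**
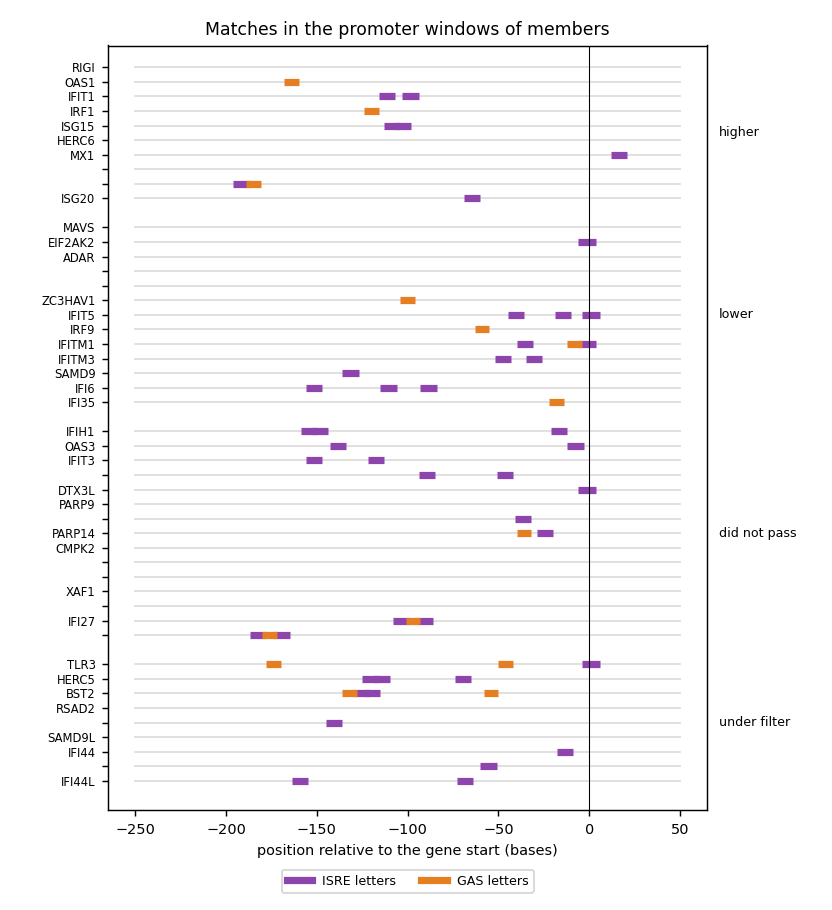
Positions of ISRE letters (GAAANNGAAA, purple) and gamma-activated site letters (TTCNNNGAA, orange) in the windows of members, in bases from the gene start, grouped by outcome in the mimic group; grey lines are windows, and unlabelled lines below a gene are its further start sites. Purple marks occur in all 4 outcome groups, in 4 of 8 risen and 6 of 11 fallen genes.

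The median intensity of an array was 31.1 and 30.6 with mimic and 31.3 and 30.7 with miR-NC, and the 2 arrays of a group correlated at 0.998 (mimic) and 0.997 (miR-NC) across probe sets. Spiked bacterial poly(A) RNAs averaged 0.35 higher (log2) on the mimic arrays, so the values below are relative to the array as a whole. The spike means were 6.43 and 6.39 with mimic and 5.97 and 6.15 with miR-NC, so the miR-NC arrays also differed from each other. For genes given with full statistics, results that end when arrays are set to these spikes are named. Setting an array to the spikes shifts all its genes by the same amount, so an error in that shift is shared by all of them. A gene's p-value does not measure that error, and rises and falls on the spike scale are given as description only. The squamous epithelial markers measured, KRT5, KRT14, KRT19, SFN, EPCAM and CDH1, lay above background on all 4 arrays, as 6 of 6. Of 8 leukocyte markers measured, 2 were above background on both mimic arrays and 4 on both miR-NC arrays, with summed intensities of 163 to 179 and 142 to 152, and the defining marker PTPRC was at 3.69 and 3.56 in the mimic group and 3.94 and 3.85 in the miR-NC group, under background. CD14 carried most of that difference (103 and 86.3 with mimic, 54.9 and 63.3 with miR-NC), and its part in the results was not tested.

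Values below are deposited intensities on a linear scale, each gene by its brightest probe set. A log2 change is mimic minus miR-NC with its SE from limma, n = 2 arrays per group. Adjusted p-values are limma's, by Benjamini-Hochberg over the 14122 genes with a mean intensity above 12. In the text, rose and fell mean an adjusted p under 0.05. Background is the brightest of 20 control probe sets with no human target on the same array, 16.8 at the most.

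The interferon genes did not move as 1 group. Of the 43 measured, 36 passed the filter, and of these 9 rose, 12 fell and 15 did not pass the test. Among all genes tested 28.1% rose and 26.9% fell, in all 55.0%, against 58.3% of the 36 tested members. The share of members called is thus near that of genes at large. The counts by role below, each of few genes, stand against these same shares. The median log2 change was -0.14 over the tested members and -0.06 over all genes. The members' median was -0.07 without mimic replicate 1, the same as that of all genes there, and -0.11 without mimic replicate 2 (all genes -0.04). It was -0.09 without miR-NC replicate 1 (all genes -0.03) and -0.17 without miR-NC replicate 2 (all genes -0.06). With the mean of all probe sets it was -0.01 (all genes -0.05). A change of at least 2-fold was called for 4 of 36 members, 2 in each direction, where 8.16% of all genes had one (4.76% higher and 3.41% lower). The groups did not overlap for 26 of 36 members, with mimic higher for 11 and lower for 15, against 79.4% of all genes (36.5% higher and 42.9% lower). The mimic arrays agreed closely with each other: their values of a member differed by a median of 0.08 (log2), as for all genes, and by 0.41 at the most (XAF1), while the miR-NC arrays differed by a median of 0.12 and by 0.72 at the most (IFIT3). Scaled to the poly(A) spikes, the median gene stood at -0.40 (log2), and 1613 of the 14122 genes tested rose and 8200 fell. On that scale 4 members rose (RIGI, IFIT1, MX1 and MX2) and 22 fell, among them all 12 that fell on the deposited scale.

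**Figure D2:**
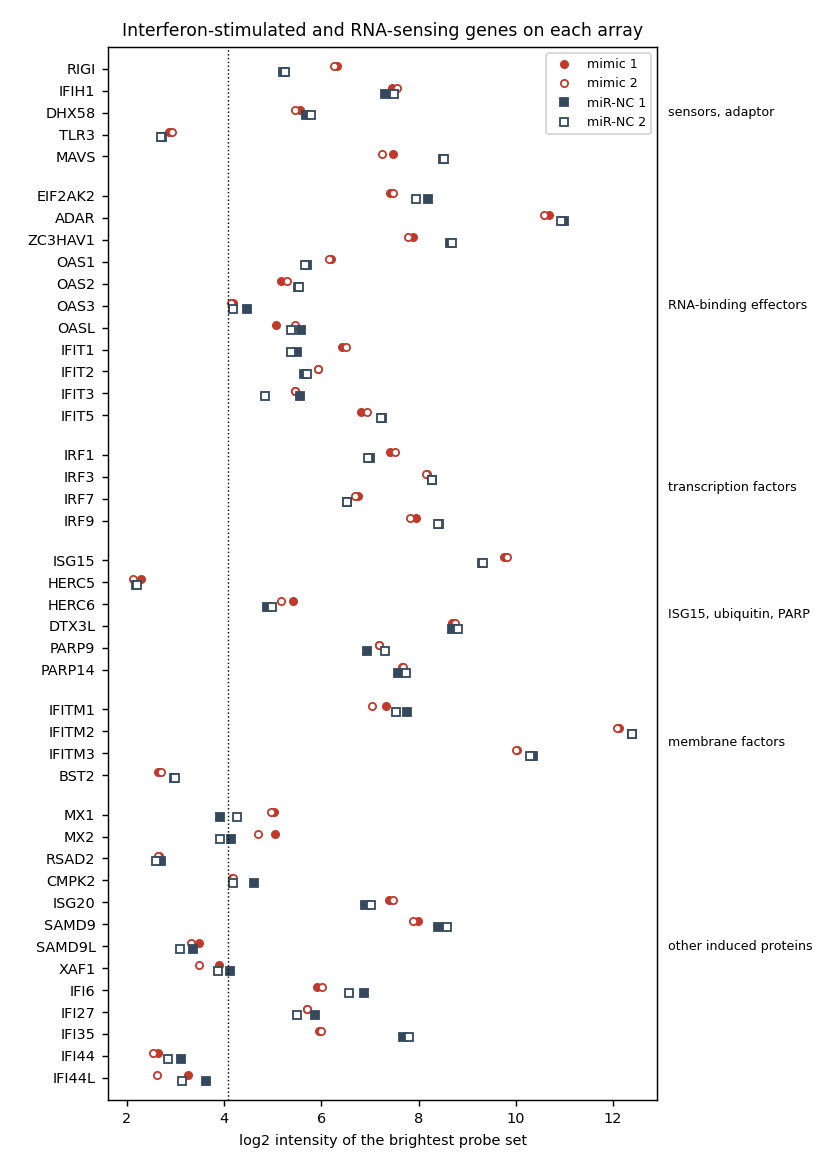
Intensity (log2) of each of the 43 measured members on the 2 mimic arrays (red circles) and the 2 miR-NC arrays (dark squares), filled for replicate 1 and open for replicate 2, by role; the dotted line is the brightest control probe set with no human target (16.8, plotted as log2). Mimic lies right of miR-NC for RIGI, IFIT1, MX1 and MX2 and left of it for IFI35, MAVS and ZC3HAV1, and 7 members lie left of the dotted line on every array.

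The sensor RIGI rose and the adaptor MAVS fell. RIGI, which senses short RNA duplexes with a triphosphate end, read 80.4 and 76.1 with mimic and 36.9 and 38.2 with miR-NC. Both mimic values were above both control values, a rise of 1.06 ± 0.11 (log2, adjusted p = 1.10e-05), 2.08-fold, and the 2 other RIGI probe sets tested rose as well. MAVS, the adaptor through which RIG-I and MDA5 signal, was the reverse. It read 178 and 152 with mimic and 365 and 367 with miR-NC, a fall of 2.23-fold (log2 change -1.16 ± 0.09, adjusted p = 1.11e-06). All 7 MAVS probe sets were lower in the mimic group, from -0.26 to -1.62 (log2), and 5 of them passed the test over all probe sets, in which 23.9% of the 34505 tested fell and 27.0% rose.

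The other sensors did not pass. IFIH1, the sensor of long RNA duplexes, read 174 and 189 with mimic and 158 and 179.7 with miR-NC, groups that overlapped (log2 change 0.11 ± 0.09, adjusted p = 0.345). DHX58 (LGP2), a helicase that modulates both sensors, read 46.9 and 44.1 with mimic and 51.1 and 55.3 with miR-NC (-0.22 ± 0.11, adjusted p = 0.116). TLR3 was at 7.31 and 7.60 in the mimic group and 6.63 and 6.50 in the miR-NC group, not above background on any array, and was not tested. With the poly(A) spikes IFIH1 stood at -0.24 without passing, and DHX58 fell (-0.57).

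**Figure D3:**
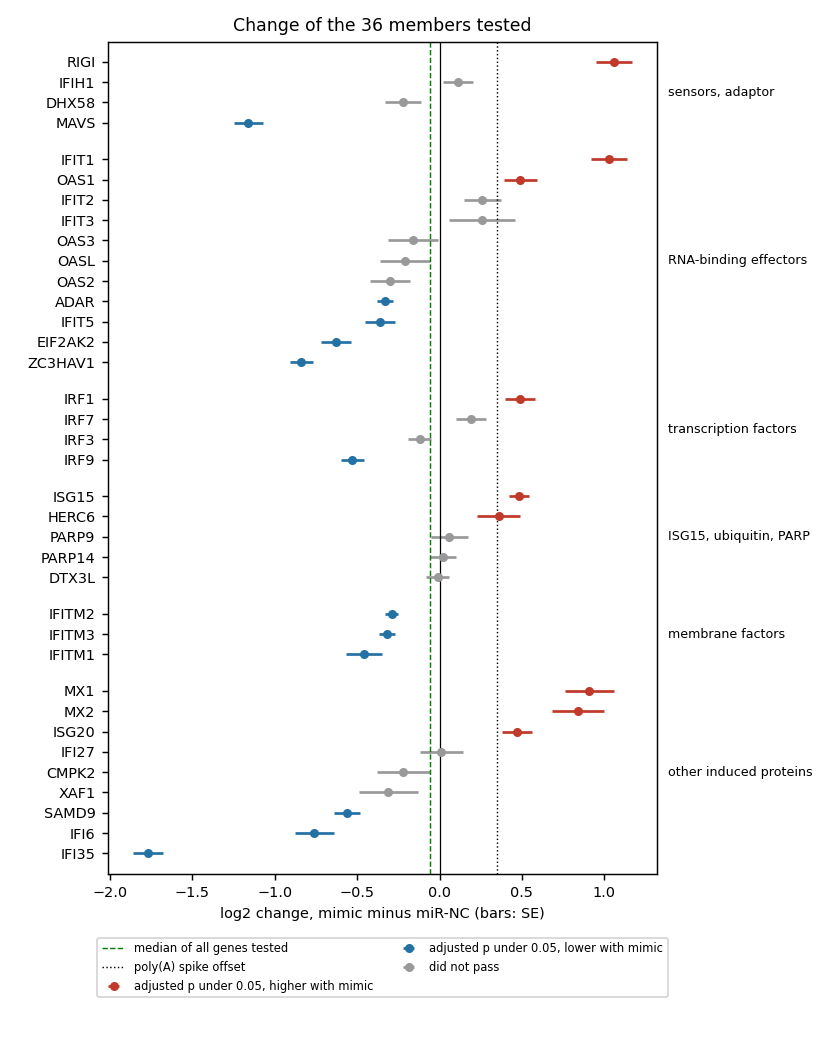
Log2 change (mimic minus miR-NC, point) with its SE (bar) for the 36 members tested, by role; red rose, blue fell, grey did not pass, the green line is the median of all genes (-0.06) and the dotted line the offset of the poly(A) spikes (0.35). Points spread on both sides of 0, from IFI35 at -1.77 to RIGI at 1.06, and HERC6 lies on the dotted line.

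Among effectors that act on RNA, 2 rose, 4 fell and 5 did not pass. IFIT1, which binds the unmethylated cap end of viral RNA, read 86.1 and 90.7 with mimic and 45.1 and 41.7 with miR-NC. It rose 2.04-fold (log2 change 1.03 ± 0.11, adjusted p = 1.27e-05). OAS1, whose product 2-5A activates RNase L, read 72.9 and 71.5 in the mimic group and 52.2 and 50.6 in the miR-NC group (0.49 ± 0.10, adjusted p = 0.00206). Its next brightest probe set rose more, by 0.85, and a dimmer one was at 0.04, while with the poly(A) spikes OAS1 was at 0.14 and did not pass.

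The 4 that fell include the proteins that shut off translation, edit duplex RNA and degrade CpG-rich RNA. ZC3HAV1, the zinc-finger antiviral protein ZAP, read 236 and 219 with mimic and 401 and 414 with miR-NC, a fall of 1.79-fold (log2 change -0.84 ± 0.07, adjusted p = 2.83e-06). Another probe set fell by 0.97, a dim one at 18.1 to 21.1 did not pass, and the mean of all 4 was -0.43. EIF2AK2 (PKR), the kinase that stops translation on binding duplex RNA, read 171 and 177 with mimic and 293 and 248 with miR-NC (-0.63 ± 0.09, adjusted p = 1.41e-04), with its other probe set lower too.

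ADAR, which converts adenosine to inosine in duplex RNA and so limits its sensing, had a small and even difference. It read 1639 and 1537 in the mimic group and 2028 and 1966 in the miR-NC group (-0.33 ± 0.05, adjusted p = 2.05e-04), and 3 of its 4 other probe sets tested fell. IFIT5, a further IFIT protein, read 112 and 122 with mimic and 151 and 149 with miR-NC (-0.36 ± 0.09, adjusted p = 0.00456). Its second probe set, of like brightness, was at 0.09 and did not pass. The call was lost with the mean of both (-0.14) and without mimic replicate 1 (-0.30), so the 2 probe sets leave the direction of IFIT5 unsettled.

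The remaining members of both families missed the threshold. IFIT2 was at 0.26 ± 0.11 (adjusted p = 0.0549), with both mimic arrays at 61.2 and the miR-NC arrays at 49.9 and 52.0. It passed with a filter at the 50th percentile and without the trend. Averaged with its dimmer probe set, which was under the filter, IFIT2 was at -0.01. IFIT3 was at 0.26 ± 0.20 and rested on 1 control array: miR-NC read 47.0 and 28.5 around mimic values of 44.2 and 43.6, and the change was 0.62 without miR-NC replicate 1 and -0.10 without miR-NC replicate 2. OAS2 was at -0.30 ± 0.12 (adjusted p = 0.0509) and OASL at -0.21. OAS3 was at -0.16, from 1 probe set near background (18.2 and 17.7 with mimic, 22.1 and 18.1 with miR-NC). Probe sets annotated to both OAS2 and OAS3 were higher with mimic, though not all passed the test, and are given at the end. With the poly(A) spikes OAS2 (-0.64), OASL (-0.56) and OAS3 (-0.50) fell. OAS2 also passed with a second quantile step, without the trend and with the replicate block. OAS2 did not overlap between groups, at 36.1 and 39.2 with mimic and 45.7 and 46.8 with miR-NC. IFIT genes resemble each other in sequence, as OAS genes do, and how far their probes share signal was not tested.

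**Figure D4:**
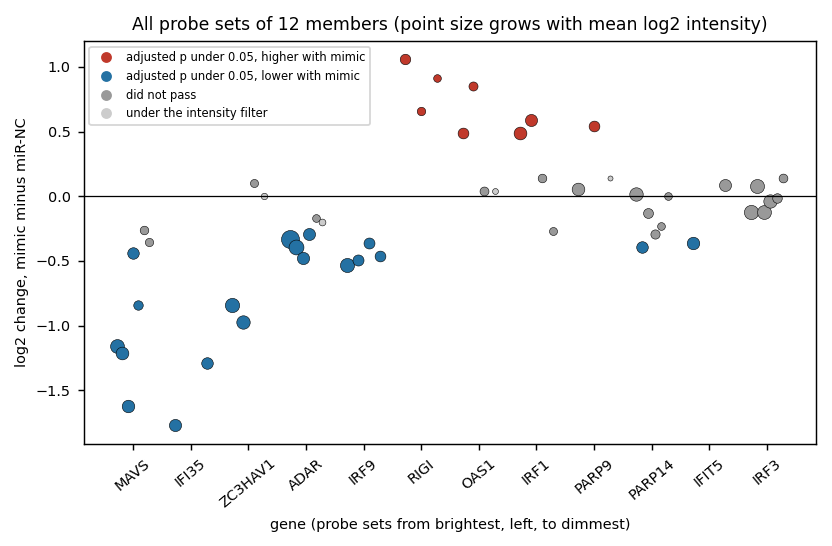
Log2 change (mimic minus miR-NC) of every probe set of 12 members, from the brightest on the left to the dimmest within each gene, with point size growing with mean log2 intensity; red rose, blue fell, dark grey did not pass, light grey was under the filter. All MAVS, IFI35, ADAR and IRF9 points lie below 0 and all RIGI points above it, while IFIT5, PARP14 and IRF3 have points on both sides.

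Of the 4 transcription factors measured, 1 rose and 1 fell. IRF1, a primary target of interferon gamma, read 169.5 and 184 with mimic and 128 and 124 with miR-NC (log2 change 0.49 ± 0.09, adjusted p = 5.81e-04). A second probe set rose by 0.59, 2 dim ones were at 0.14 and -0.27, their mean with the others was 0.24, and IRF1 was at 0.14 with the poly(A) spikes, where it did not pass. IRF9, the DNA-binding partner of the STAT proteins at the ISRE, went the other way. It read 246 and 225 in the mimic group and 343 and 337 in the miR-NC group (-0.53 ± 0.07, adjusted p = 1.08e-04), and all 4 of its probe sets fell.

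The factors that switch on interferon genes differed little. IRF3, which is activated by phosphorylation rather than by its amount, read 288 and 285 with mimic and 312 on both miR-NC arrays (-0.12 ± 0.07, adjusted p = 0.139), and its 6 probe sets ranged from -0.12 to 0.14. IRF7 read 108 and 103 with mimic and 91.9 and 92.7 with miR-NC (0.19 ± 0.09, adjusted p = 0.101). On the poly(A) scale IRF3 fell (-0.47) and IRF7 turned to -0.16 without passing.

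In the ISG15 and ADP-ribosylation group 2 of 5 tested genes rose and 3 did not pass. ISG15, a ubiquitin-like protein joined to newly made proteins, read 869.6 and 908 with mimic and 635 and 639 with miR-NC (0.48 ± 0.06, adjusted p = 2.77e-05), and the gap between the groups exceeded the spread within either. HERC6, a relative of the ISG15 ligase HERC5, read 42.8 and 36.0 with mimic and 29.3 and 31.7 with miR-NC (0.36 ± 0.13, adjusted p = 0.0377). That call was lost without mimic replicate 1 (0.24), mimic replicate 2 (0.49) or miR-NC replicate 1 (0.31). With the poly(A) spikes ISG15 was at 0.13 and HERC6 at 0.02, and neither passed.

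The partners DTX3L and PARP9, a ubiquitin ligase and an inactive ADP-ribosyltransferase that work as a pair, were at -0.01 ± 0.07 and 0.06 ± 0.11. PARP9 read 145 on both mimic arrays, between miR-NC values of 123 and 158, though its second probe set rose by 0.54. PARP14, which adds single ADP-ribose units, was at 0.02 ± 0.08 while its second probe set fell by 0.39. With the poly(A) spikes all 3 fell, DTX3L by 0.36, PARP9 by 0.28 and PARP14 by 0.33. HERC5 lay at 4.36 to 4.90 over all 4 arrays, under background.

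The 3 IFITM genes fell together by similar small amounts. These membrane proteins hinder the fusion of viruses with endosomes. IFITM2 read 4453 and 4363 with mimic and 5400.2 and 5375 with miR-NC (-0.29 ± 0.04, adjusted p = 6.58e-05), and IFITM3 1043 and 1022 with mimic and 1312 and 1257 with miR-NC (-0.32 ± 0.05, adjusted p = 3.38e-04). IFITM1 read 160.4 and 132 in the mimic group and 216 and 185 in the miR-NC group (-0.46 ± 0.11, adjusted p = 0.00482), and did not pass without mimic replicate 2 (-0.32). The 3 genes are close copies of each other and 4 of their 5 probe sets are of the class that can cross-hybridize, so how far they report separate transcripts is uncertain. BST2 (tetherin), which holds budding viruses at the cell surface, was under background at 6.21 and 6.52 with mimic and 7.76 and 7.98 with miR-NC.

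Of the other induced proteins 3 rose, 3 fell and 3 did not pass. The dynamin-like GTPases MX1 and MX2, which trap viral nucleocapsids, both rose, at low intensities. MX1 read 32.5 and 31.2 with mimic and 15.0 and 19.1 with miR-NC (0.91 ± 0.15, adjusted p = 3.92e-04), the first control value being under background. MX2 read 33.0 and 25.9 with mimic and 17.7 and 15.0 with miR-NC (0.84 ± 0.16, adjusted p = 0.00105). Neither was tested with a filter at the 50th percentile, and with both of its probe sets averaged MX2 was at 0.35. ISG20, an RNA exonuclease, read 167 and 178 in the mimic group and 119.6 and 129 in the miR-NC group (0.47 ± 0.09, adjusted p = 8.64e-04), and was at 0.12 with the poly(A) spikes, where it did not pass.

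IFI35 had the largest change of all tested members. This leucine zipper protein, which pairs with NMI, read 62.1 and 63.3 with mimic and 206 and 223 with miR-NC, a fall of 3.42-fold (log2 change -1.77 ± 0.09, adjusted p = 8.22e-08), and its second probe set fell by 1.29. IFI6, a membrane protein of the endoplasmic reticulum and mitochondria, read 60.3 and 64.4 with mimic and 117 and 95.2 with miR-NC (-0.76 ± 0.12, adjusted p = 2.38e-04). SAMD9, a cytoplasmic restriction factor of poxviruses, read 253 and 237 with mimic and 339 and 383 with miR-NC (-0.56 ± 0.08, adjusted p = 1.47e-04).

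Several genes that usually mark a strong interferon response were near or under background in both groups. RSAD2 (viperin) read 6.29 and 6.19 with mimic and 6.51 and 6.01 with miR-NC, and IFI44 6.19 and 5.82 with mimic and 8.63 and 7.19 with miR-NC. IFI44L and SAMD9L were under background on every array as well, so that with TLR3, HERC5 and BST2 7 of the 43 measured members were, and none of these 7 was tested. IFI27, in contrast, was above background on every array. It read 51.8 and 51.9 with mimic, inside the miR-NC values of 58.8 and 45.4 (0.01 ± 0.13). CMPK2, a mitochondrial nucleotide kinase whose gene neighbours RSAD2, was at -0.22 ± 0.16 and XAF1, a promoter of apoptosis, at -0.31 ± 0.18, and neither passed.

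The wider pathway was read from 3 lists of 104 genes chosen with earlier results of these data known, of which 97 were measured and 83 tested. In them 31 genes rose and 21 fell, 62.7% of those tested against 55.0% of all genes, with a median log2 change of 0.04. Scaled to the poly(A) spikes, 17 of these genes were higher and 43 lower. On that scale 1613 of all 14122 genes tested were higher and 8200 lower, so most genes shifted down. The interferon genes themselves that were measured, IFNB1, IFNE, IFNK, IFNW1, IFNL1 and IFNG, were under background on all 4 arrays, for example IFNB1 at 5.88 and 6.42 with mimic and 8.49 and 5.84 with miR-NC.

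Among ligands, receptors and receptor signalling 8 of 17 tested genes rose and 5 fell, where 28.1% of all genes rose and 26.9% fell. IFNAR2, a chain of the type I interferon receptor, read 214 and 234 with mimic and 99.7 and 97.8 with miR-NC (log2 change 1.18 ± 0.09, adjusted p = 9.16e-07), although without cross-hybridizing probe sets it was at 0.32 and did not pass. IL10RB, a chain shared by the receptors of interferon lambda and interleukin 10, read 281 and 302 with mimic and 184 and 181 with miR-NC (0.68 ± 0.08, adjusted p = 2.14e-05). The receptor chains IFNAR1, IFNGR1 and IFNGR2, named after their values were seen, rose by 0.58, 0.58 and 0.54 (log2). Of the signalling proteins, named likewise, STAT3 rose by 0.64 and JAK1 fell (-0.18). Values of these genes with the poly(A) spikes are not given here. IFNLR1, the specific chain for interferon lambda, fell, with 209.9 and 203 with mimic and 241 and 234 with miR-NC (-0.20 ± 0.07, adjusted p = 0.0391).

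Inhibitors of receptor signalling lay on both sides. PTPN1, a phosphatase of JAK kinases, read 1789.7 and 1746 in the mimic group and 1081 and 1071 in the miR-NC group (0.72 ± 0.05, adjusted p = 5.05e-07). SOCS3, a feedback inhibitor of cytokine receptors, read 40.7 and 39.5 with mimic and 22.4 and 22.8 with miR-NC (0.82 ± 0.12, adjusted p = 1.76e-04), and the mean of its probe sets was 0.44. The phosphatase PTPN6 read 192 and 167 with mimic and 271 and 281 with miR-NC (-0.62 ± 0.09, adjusted p = 1.01e-04). The SUMO ligases PIAS4 and PIAS1, which restrain STAT proteins, fell as well. PIAS4 read 151 and 135 with mimic and 178 and 183 with miR-NC (-0.34 ± 0.09, adjusted p = 0.00633), and was at -0.72 without cross-hybridizing probe sets. PIAS1 read 240.3 and 247 with mimic and 277 and 283 with miR-NC (-0.20 ± 0.07, adjusted p = 0.0308), and its call, like that of IFNLR1, was lost under several settings.

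In the sensing pathway outside the members 5 of 22 tested genes rose and 7 fell, where 28.1% of all genes rose and 26.9% fell. TNFAIP3 (A20), a ubiquitin-editing inhibitor of NF-kB, read 798 and 921 with mimic and 224 and 342 with miR-NC (1.63 ± 0.15, adjusted p = 6.28e-06). CYLD, a deubiquitinase that acts on RIG-I, read 188 and 184 in the mimic group and 98.0 and 107 in the miR-NC group (0.86 ± 0.09, adjusted p = 1.05e-05), and its 3 other probe sets rose as well. PRKRA, an activator of the kinase PKR, read 461 and 431 with mimic and 347 and 341 with miR-NC (0.38 ± 0.07, adjusted p = 6.15e-04), and was at 0.03 with the poly(A) spikes. TRIM25, a ubiquitin ligase of RIG-I, read 327 and 319.9 with mimic and 206 and 251 with miR-NC (0.51 ± 0.09, adjusted p = 8.07e-04), but was at -0.06 without cross-hybridizing probe sets and did not pass with the poly(A) spikes.

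The 4 largest falls in that list were those of TRAF3, MYD88, NLRX1 and TICAM1. MYD88, the adaptor of most Toll-like receptors, read 109 and 98.2 with mimic and 158 and 157 with miR-NC (-0.60 ± 0.09, adjusted p = 1.96e-04), and the mean of its probe sets (-0.28) did not pass. TICAM1, the adaptor of TLR3, read 153 and 143 with mimic and 207 and 199 with miR-NC (-0.46 ± 0.08, adjusted p = 6.40e-04). NLRX1, a mitochondrial protein that binds MAVS, read 137 and 129 in the mimic group and 197 and 202 in the miR-NC group (-0.59 ± 0.08, adjusted p = 1.06e-04), with a mean over its probe sets of -0.29.

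The probe sets of TRAF3, a ubiquitin ligase downstream of MAVS, disagreed. The brightest read 179 and 158 with mimic and 449.6 and 438 with miR-NC (-1.40 ± 0.08, adjusted p = 1.71e-07). The 2 others rose, by 0.36 and 0.48, with 93.4 and 89.2 in the mimic group and 72.4 and 70.1 in the miR-NC group for the brighter of them. The direction of TRAF3 therefore depends on the probe set, and the mean of all was -0.19.

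Among other induced genes 18 of 44 rose and 9 fell, where 28.1% of all genes rose and 26.9% fell. CXCL10, a chemokine that draws T cells, read 135 and 268 with mimic and 35.9 and 36.4 with miR-NC (2.40 ± 0.24, adjusted p = 9.47e-06), and the change was 2.89 without mimic replicate 1 and 1.90 without mimic replicate 2. DDX60, a helicase that assists RIG-I, read 54.2 and 50.6 with mimic and 19.9 and 18.2 with miR-NC (1.46 ± 0.12, adjusted p = 3.14e-06). LAMP3, a lysosomal membrane protein, read 83.3 and 103 with mimic and 36.7 and 30.6 with miR-NC (1.47 ± 0.14, adjusted p = 6.03e-06). SAMHD1, which breaks down deoxynucleotides, read 83.0 and 87.3 with mimic and 35.4 and 33.7 with miR-NC (1.30 ± 0.11, adjusted p = 2.48e-06). The means over their probe sets were 0.61 for LAMP3 and 0.56 for SAMHD1. All 4 also rose with the poly(A) spikes.

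The falls in that list were led by IFI30, a thiol reductase of lysosomes. It read 141 and 140.2 in the mimic group and 534 and 522 in the miR-NC group (-1.91 ± 0.07, adjusted p = 9.13e-09). PML, which builds nuclear bodies, read 82.1 and 78.9 with mimic and 172 and 179 with miR-NC (-1.12 ± 0.09, adjusted p = 1.57e-06). Its 9 other probe sets tested were all lower, and 6 of them passed the test over all probe sets. PML was at -0.35 without cross-hybridizing probe sets. TRIM5, a retroviral restriction factor, read 172 and 168 with mimic and 238 and 288 with miR-NC (-0.62 ± 0.09, adjusted p = 2.23e-04), and was at -0.37 without cross-hybridizing probe sets. SP110, a nuclear body protein, read 482 and 452 with mimic and 633 and 675 with miR-NC (-0.49 ± 0.06, adjusted p = 7.56e-05), and its 4 other probe sets tested fell too.

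**Figure D5:**
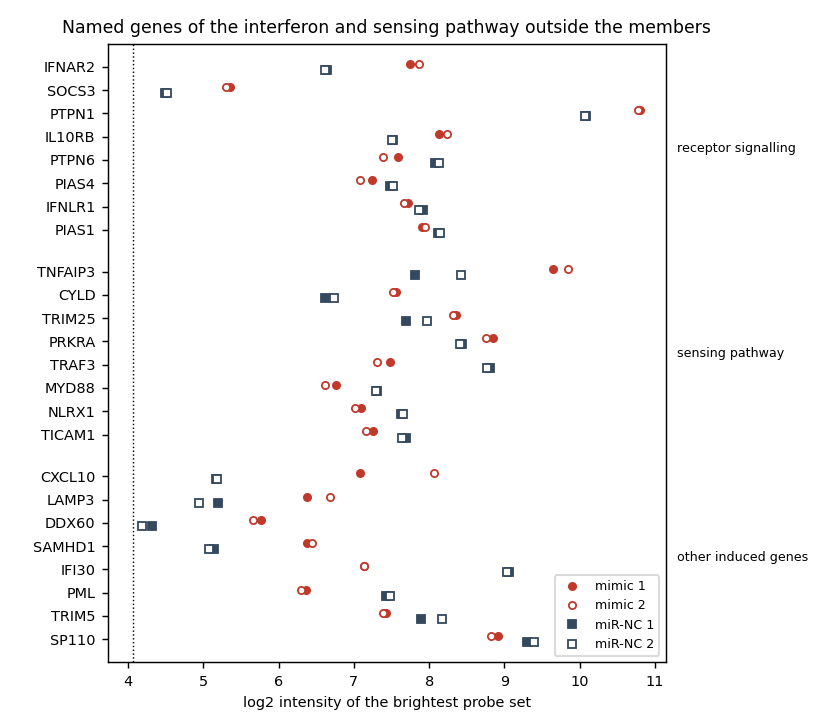
Intensity (log2) of the 24 named pathway genes outside the members on the 2 mimic arrays (red circles) and the 2 miR-NC arrays (dark squares), filled for replicate 1 and open for replicate 2; the dotted line is the brightest control probe set with no human target. Mimic lies right of miR-NC for CXCL10, TNFAIP3, LAMP3 and DDX60 and left of it for IFI30, TRAF3 and PML.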

How the data were processed

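The intensity values deposited by the authors are RMA values, per the submitters' processing notes; the linear scale was read from the values. RMA corrects background, equalizes the arrays' distributions and summarizes probes, so a change in total RNA would not be visible. Gene symbols came from the platform annotation, and each gene was read from its brightest probe set with 1 symbol. The deposited intensities were turned to log2 and fitted with limma 3.58.1 (R 4.3.3, trended eBayes), without a replicate block, over the 14122 genes above the 30th percentile of mean intensity, with Benjamini-Hochberg adjustment at 0.05. The members, pathway lists and tests were chosen with earlier results of these data known. The members named with full statistics are up to 12 past the threshold in each direction, by size, with the sensors and IRF factors, and 4 per direction of each pathway list. The number of arrays, 2 per group, limits precision. Alternatives covered scaling (a second quantile step, a shared median, the 11 poly(A) spike probe sets), the filter, the choice of probe set, the trend, the block, thresholds and leaving out each array. The model was also run on data simulated with independent noise from its own fitted variances. Such data cannot show whether array-wide effects or technical replicates affect the calls. Same-numbered arrays' deviations correlated at 0.07 and the labels do not pair them.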

Additional observations from a re-analysis of the deposited data

Results flagged for a closer look

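A probe set annotated to both OAS2 and OAS3, which the single-symbol rule leaves out, gave a signal outside the main measurement. It read 196 and 188 with mimic and 137 and 121 with miR-NC, a log2 change of 0.58 ± 0.09 (limma, adjusted p = 2.29e-04). The brightest single-symbol probe sets of OAS2 and OAS3 were at -0.30 and -0.16 and did not pass. Which of the 2 genes the shared probe set reads was not tested.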

How the results depend on the processing

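On the deposited scale 14 of the 81 member probe sets tested rose and 28 fell, where 27.0% of all 34505 probe sets tested rose and 23.9% fell. With the arrays scaled to the poly(A) spikes, 1613 genes rose and 8200 fell, with 4 and 22 members (median -0.49, all genes -0.40). The counts there were 17 and 43 pathway genes, and 6 and 53 member probe sets. Shares of all probe sets under the alternatives are not given here. A minimum of 1.5-fold left 1731 genes higher and 1417 lower, 4 and 5 members, 17 and 7 pathway genes, and 8 and 10 member probe sets. The mean of all probe sets put the members' median at -0.01. Leaving out 1 array at a time gave a members' median of -0.17 to -0.07, 2870 to 4101 genes higher and 2496 to 4034 lower, and 26 to 33 pathway genes higher and 13 to 21 lower; the lowest counts of fallen genes, 2496 and 13, came without mimic replicate 2. PARP9 and PARP14 changed sign with the poly(A) spikes (-0.28 and -0.33), as did PARP14 (-0.39) and TRIM25 (-0.06) without cross-hybridizing probe sets. The cause was not tested beyond the alternatives' construction. With the replicate block 9 members rose and 13 fell, OAS2 being the added call, and all 21 calls were kept; the arrays share only a number. Of the values of single genes under these alternatives, 822 stayed on the same side of the threshold, 47 lost the call and 17 gained it in the same direction. Among the 822, 17 changed sign without passing in either setting, among them IFIH1, IFIT2, IFIT3, IRF7 and IFI27 with the poly(A) spikes. With 2 arrays per group, small changes near the threshold (HERC6, IFIT5, IFITM1) are the least secure. Intensities near the no-target controls (such as MX1, MX2, OAS3 and XAF1) limit the precision of those genes.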
